A study of Mus musculus with 8 samples.

Results

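Chromatin accessibility at 10 genes of the unfolded protein response, Hspa5, Ddit3, Atf4, Atf6, Xbp1, Ern1, Eif2ak3, Creb3l3, Trib3 and Herpud1, was followed in mouse hepatocytes after partial hepatectomy (PHx). The genes were chosen by name. For each of them, the open intervals that overlapped the gene body or the 10 kb on either side were taken from every library, and those within 1 kb of an annotated transcription start site (TSS) of the gene, here called its promoter, were kept apart from distal ones. Of the 10 genes, 9 had a promoter interval in at least 1 list and 8 had one in all 8 lists, compared with 16412 and 13202 of all 21924 protein-coding genes. Around the 10 genes lay 218 of the 315767 regions obtained by merging the intervals of all lists. Of these, 15 were promoters of the genes, 9 lay at the TSS of another gene and 194 were distal.

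All libraries came from liver hepatocytes of mice fed a normal diet, of the strain C57BL/6 in the labels and C57BL/6J in the study's methods, and no other genotype or agent was used. The labels give an age of 10 to 12 weeks at surgery, and the methods give a slightly younger one. The groups were undamaged liver (0 h) and liver taken 48, 72 or 96 h after PHx, an operation in which liver lobes are cut away and the rest regrows, with 2 libraries in each of the 4 groups. Cells were freed by collagenase perfusion, so the profiles are of cells recovered from it, and open DNA was tagged by Tn5 transposase (ATAC-Seq) in bulk nuclei. The study describes its bulk replicates at 0 and 48 h as hepatocyte preparations of separate mice, while the labels do not tie the libraries to mice. Other replicates were not analysed here. The p-values and standard errors (SE) use the spread between libraries within groups, pooled over the 4 groups. That spread is drawn towards the one seen over all promoters or distal regions of like rank. They therefore do not measure the spread of a single gene or group alone.

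The unfolded protein response is the program by which a cell answers misfolded protein in the endoplasmic reticulum. Sensors in its membrane, PERK (Eif2ak3), IRE1 (Ern1) and ATF6, act through the transcription factors ATF4, XBP1 and cleaved ATF6, which raise chaperones, degradation factors and, when stress lasts, CHOP (Ddit3). Hepatocytes secrete much protein and also carry CREBH (Creb3l3), a membrane-bound factor of the same family that is known for its part in liver lipid and acute phase genes. Known response elements are the ERSE, which joins CCAAT and CCACG across 9 bases, the more compact ERSE-II, which joins ATTGG and CCACG across 1 base, and the C/EBP-ATF element TTGCATCA.

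Stretches of the promoters that the results turn on are shown first. Those of Eif2ak3, Hspa5, Atf4 and Ddit3 come from the 300 bp centred on the strongest promoter summit and stop before the first TSS, with each CCAAT box (CCAAT, or ATTGG on the other strand) in capitals. The stretch of Herpud1 lies before its first TSS, with the C/EBP-ATF element and the ERSE-II in capitals. The short stretches of Hspa5 and Xbp1 hold their ERSE in capitals. All were read from mm10 (GRCm38.p6), and the Herpud1 stretch and the Hspa5 ERSE lie in promoters as RefSeq defines them.
Eif2ak3 (chr6:70844172-70844471, + strand): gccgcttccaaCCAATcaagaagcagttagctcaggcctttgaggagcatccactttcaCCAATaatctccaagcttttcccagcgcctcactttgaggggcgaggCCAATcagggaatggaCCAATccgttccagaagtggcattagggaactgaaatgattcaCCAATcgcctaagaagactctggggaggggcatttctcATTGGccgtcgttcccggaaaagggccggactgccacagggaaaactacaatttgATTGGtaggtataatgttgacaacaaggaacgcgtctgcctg
Hspa5 (chr2:34771702-34771969, + strand): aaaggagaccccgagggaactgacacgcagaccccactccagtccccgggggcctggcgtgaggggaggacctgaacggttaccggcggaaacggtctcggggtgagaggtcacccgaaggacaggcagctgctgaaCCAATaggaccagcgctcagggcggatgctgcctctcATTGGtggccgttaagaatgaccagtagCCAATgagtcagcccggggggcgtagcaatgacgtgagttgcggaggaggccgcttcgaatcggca
Atf4 (chr15:80255024-80255183, + strand): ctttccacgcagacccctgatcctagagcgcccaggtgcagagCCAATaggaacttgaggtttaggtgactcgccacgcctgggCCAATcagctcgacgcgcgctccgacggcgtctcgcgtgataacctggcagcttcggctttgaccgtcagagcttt
Ddit3 (chr10:127290564-127290773, + strand): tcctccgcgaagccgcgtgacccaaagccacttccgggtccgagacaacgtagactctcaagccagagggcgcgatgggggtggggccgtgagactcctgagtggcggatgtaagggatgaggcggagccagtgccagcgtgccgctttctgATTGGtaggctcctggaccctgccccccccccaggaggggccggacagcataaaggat
Herpud1 (chr8:94386179-94386437, + strand): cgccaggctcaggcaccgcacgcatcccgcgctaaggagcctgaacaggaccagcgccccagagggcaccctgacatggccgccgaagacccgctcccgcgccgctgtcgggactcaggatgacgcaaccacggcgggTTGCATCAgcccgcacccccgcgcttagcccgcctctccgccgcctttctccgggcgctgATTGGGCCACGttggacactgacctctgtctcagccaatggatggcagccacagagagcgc
Hspa5 ERSE (chr2:34772020-34772048, + strand): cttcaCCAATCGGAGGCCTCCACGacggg
Xbp1 ERSE (chr11:5520901-5520929, + strand): accggCCAATCGCGGACGGCCACGaccct

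These 6 motifs were searched on both strands in 300 bp around the best summit of 16412 promoters, 9 of them of member genes: ERSE, ERSE-II, TGACGTGG (UPRE), TTGCATCA, TGACGTCA (CRE) and CCAAT, which every ERSE contains. The ERSE was found in 0.0792% of all promoters and, among the members, in Xbp1. The ERSE-II was also found in 0.0792%, and among the members in Herpud1. CCAAT was found in 32.8% of all promoters and in 6 of the 9 members, with 7 copies in the window of Eif2ak3. The UPRE (0.676% of all promoters), TTGCATCA (0.414%) and CRE (2.1%) were in no member window. In RefSeq promoters, 250 bases before to 50 after a start, 10 promoters of 9 member genes could be matched, and none for Atf6. Sequence at the Atf6 TSS was therefore not searched. There the ERSE was in 0.119% of 32851 promoters and in Hspa5 among the members, and TTGCATCA was in 0.895% and in Herpud1. A match describes letters and is not a bound site.

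The deposited lists held 141271 to 213226 lines, which gave 105206 to 154577 distinct intervals, and read depth is unknown. At rank 50000 the −log10 p was 14.0 to 15.2 in 4 libraries, 9.96 in 0 h replicate 2, 8.05 and 8.62 at 48 h, and 8.29 in 96 h replicate 2. Intervals were ranked within a list by −log10 p, with rank 1 the strongest, and a change is the difference in −log2 rank, so that 1 is a move up the list by a factor of 2 in rank. Of 6 hepatocyte marker promoters (Alb, Apoa1, Ttr, Hnf4a, Cps1 and Tat), each 0 h library listed 6, the 48 h libraries 3 and 4, each 72 h library 5, and the 96 h libraries 6 and 5. Of 5 Kupffer and immune markers 0 or 1 were listed per library, with Cd5l, Ptprc and Cd3e in none. Endothelial promoters were listed for 2 to 3 of 4 genes (Stab2 in none), and stellate promoters for 2 to 4 of 4. Cholangiocyte promoters were listed for 2 to 3 of 4, with Krt19 in none. Promoters can be open in cells that do not express the gene, and the part of other cells in the results below was not tested. In bulk libraries, fewer cells with an open site and a weaker signal per cell cannot be told apart.

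Among the sensors, Eif2ak3 (PERK, the kinase that phosphorylates eIF2α; chr6:70844515-70905245, + strand) and Ern1 (IRE1, the kinase and RNase that splices Xbp1 mRNA; chr11:106394650-106487852, − strand) had the strongest promoters of the group. Eif2ak3 ranked 7401 and 7275 in the 0 h pair, 15486 and 10945 in the 48 h pair, 12850 and 19743 in the 72 h pair and 15035 and 4069 in the 96 h pair (replicates 1 and 2). Ern1 ranked 6238 and 6931 in the 0 h pair, 18151 and 16693 in the 48 h pair, 8813 and 10930 in the 72 h pair and 15169 and 4169 in the 96 h pair. Both genes lay weaker than at 0 h in every library at 48 and 72 h, while the 96 h pair straddled the 0 h values. Over the 8 libraries their median ranks were 11897.5 and 9871.5, and Ern1 was the stronger of them in 4 of 8, so their order was not resolved. By median rank the order of the group was Ern1, Eif2ak3, Trib3, Xbp1, Hspa5, Atf6, Herpud1, Ddit3 and Atf4. Trib3 was ahead of Xbp1 in 7 of 8 libraries, and Herpud1 of Ddit3 and Ddit3 of Atf4 in 8 of 8, while each other neighbour was ahead of the next in 4 or 5. The medians of Ern1, Eif2ak3 and Trib3 were stronger than those of 56.2%, 50.2% and 48.2% of promoters in all 8 lists, and the median of Ddit3 than those of 5.1%.

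Atf6 (chr1:170704674-170867771, − strand), the sensor that is cut in the Golgi to free its transcription factor domain, ranked 29014 and 19844 in the 0 h pair, 40259 and 25473 in the 48 h pair, 35041 and 37392 in the 72 h pair and 45269 and 13464 in the 96 h pair. Its 48 h and 96 h values overlapped 0 h, and both 72 h values lay below. The promoter held 2 intervals in all 8 lists, one across the TSS and one whose strongest summit lay at −899 bp from it. The latter supplied the better rank in replicate 2 at 48 h and at 96 h and in replicate 1 at 72 h. The interval across the TSS alone ranked 40259 and 39339 in the 48 h pair, 39874 and 37392 in the 72 h pair and 45269 and 32221 in the 96 h pair, so that all 6 libraries after PHx lay below both 0 h libraries. With a window of 250 bp the change was −0.73 at 48 h, −0.69 at 72 h and −0.67 at 96 h, in place of −0.42, −0.59 and −0.041, and limma with Benjamini-Hochberg adjustment called none of them (adjusted p = 0.518, 0.621 and 0.963).

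Creb3l3 (chr10:81084324-81098874, − strand) had no interval within 1 kb of its GENCODE TSS in any list. RefSeq gives a further start 6283 bp into the gene, and it lies inside the region chr10:81092334-81093406, which was in all 8 lists. This region ranked 19129 and 15241 in the 0 h pair, 20885 and 38768 in the 48 h pair, 25595 and 31790 in the 72 h pair and 28773 and 9975 in the 96 h pair. Both 48 h values and both 72 h values were weaker than the 0 h values, with changes of −0.74 ± 0.57 (SE) at each time (−1.18 without 48 h replicate 1 and −0.29 without 48 h replicate 2 for the former), and the 96 h pair straddled 0 h. The intronic stretch just before that start holds 1 CCAAT box, in capitals.
Creb3l3 (chr10:81092658-81092806, - strand): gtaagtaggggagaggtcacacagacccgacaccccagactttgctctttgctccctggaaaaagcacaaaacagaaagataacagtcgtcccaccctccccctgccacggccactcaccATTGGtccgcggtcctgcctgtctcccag

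Of the transcription factors, Xbp1 had a promoter in the middle of the group's order, and Ddit3 and Atf4 had its weakest. Xbp1 (chr11:5520659-5525893, + strand), whose spliced form drives chaperone and degradation genes, ranked 23458 and 17596 in the 0 h pair, 21581 and 42815 in the 48 h pair, 33066 and 35292 in the 72 h pair and 24110 and 10127 in the 96 h pair. Its replicates disagreed at 48 h, where replicate 1 lay among the 0 h values. Ddit3 (CHOP, the factor linked to death under lasting stress; chr10:127290774-127296288, + strand) ranked 43298 and 29954 in the 0 h pair, 51767 and 53681 in the 48 h pair, 61649 and 53958 in the 72 h pair and 53367 and 26574 in the 96 h pair. All 4 libraries of 48 and 72 h lay below both 0 h libraries.

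Atf4 (chr15:80255184-80257541, + strand), whose translation rises when PERK is active, had the weakest promoter of those listed. It ranked 53081 and 39241 in the 0 h pair, was not listed in 48 h replicate 1, ranked 95916 in 48 h replicate 2, 95864 and 83633 in the 72 h pair and 107637 and 31094 in the 96 h pair. Both 72 h libraries and the only listed 48 h library were weaker than both 0 h libraries. The interval across its TSS (chr15:80254853-80255310) was in both 0 h lists and in neither 48 h list, and the rank in 48 h replicate 2 came from an interval further into the gene. Because 1 list lacked it, Atf4 was outside the test across promoters.

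Among the targets, Hspa5 (BiP, the main chaperone of the endoplasmic reticulum; chr2:34771970-34777547, + strand) ranked 22217 and 19870 in the 0 h pair, 53860 and 49195 in the 48 h pair, 28347 and 41061 in the 72 h pair and 18168 and 11628 in the 96 h pair. Replicates lay close together at 0 and 48 h, and the 4 pairs did not overlap each other. The fold enrichment over local background was 6.05 and 5.42 in the 0 h pair, 2.73 and 3.10 in the 48 h pair, 6.26 and 4.70 in the 72 h pair and 8.31 and 7.82 in the 96 h pair. On this scale 48 h again lay below and 96 h above 0 h, and 72 h overlapped it.

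Herpud1 (a membrane protein of the degradation machinery; chr8:94386438-94395377, + strand) ranked 35153 and 16655 in the 0 h pair, 42120 and 38202 in the 48 h pair, 40774 and 33401 in the 72 h pair and 39862 and 24029 in the 96 h pair. Its 48 h pair lay below both 0 h values, which were themselves the widest 0 h pair of the group, 1.08 apart on the log2 scale. Trib3 (a pseudokinase induced by ATF4 and CHOP; chr2:152337422-152344032, − strand) ranked 11796 and 13973 in the 0 h pair, 11790 and 26846 in the 48 h pair, 9400 and 4291 in the 72 h pair and 16375 and 13415 in the 96 h pair. Trib3 was the member whose 72 h libraries both lay above both 0 h libraries.

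**Figure D1:**
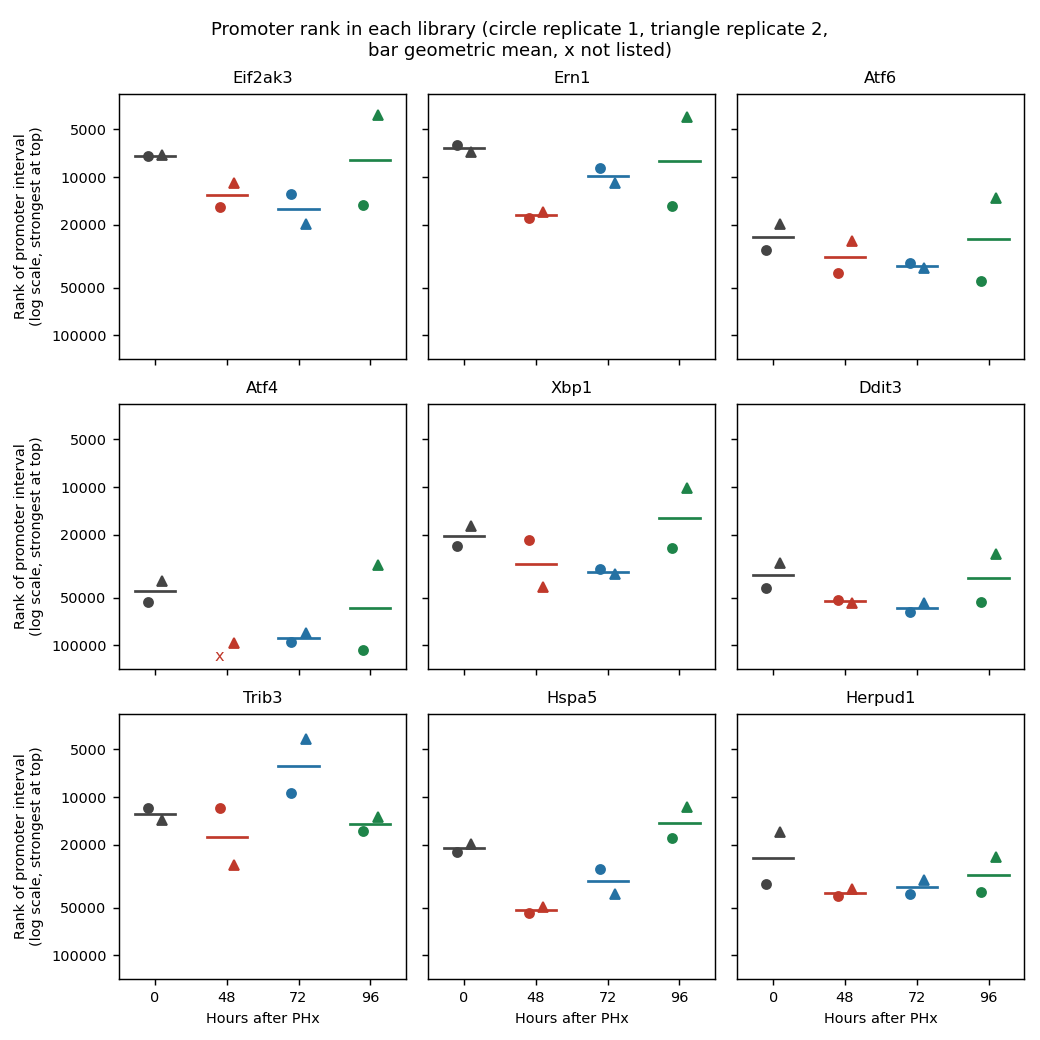
Rank of the promoter interval (y, log scale, strongest at the top) by hours after PHx (x) for the 9 genes with a promoter interval; circles are replicate 1, triangles replicate 2, bars geometric means of the pair, and x marks a library without an interval. Hspa5 and Ern1 lie lowest at 48 h, Trib3 lies highest at 72 h, and the 96 h replicates are far apart for most genes.

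The first comparison asked how promoter ranks at 48 h differed from undamaged liver. All 8 fitted members lay lower at 48 h, with changes of −0.42 (Atf6) to −1.40 (Ern1), and the median was −0.66 beside −0.20 over all 13202 promoters. Leaving out 1 library kept all of these below 0 except that of Trib3, but moved the change of Atf6 between −0.75 and −0.086 (without 48 h replicates 2 and 1), that of Xbp1 between −1.08 and −0.087 (without 48 h replicates 1 and 2) and that of Herpud1 between −1.27 and −0.19 (without 0 h replicates 1 and 2). The widest differences were those of Ern1 (−1.40 ± 0.64 SE) and Hspa5 (−1.29 ± 0.48), or −1.21 and −1.10 relative to the median promoter. Of all promoters, 6.51% and 8.3% had a lower change than these. None of the members passed limma with Benjamini-Hochberg adjustment over all promoters. The adjusted p was 0.267 for Hspa5 and 0.358 for Ern1, the 2 members with an unadjusted p under 0.05. In the same test 6 of all promoters were called, 5 of them higher (0.0379%) and 1 lower (0.00757%), and 1655 (12.5%) had an unadjusted p under 0.05. With 2 libraries against 2, the smallest two-sided exact permutation p for a single promoter is 0.333.

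As a description with no test, both 48 h libraries ranked below both 0 h libraries for 5 of the 8 members (Hspa5, Ddit3, Ern1, Eif2ak3 and Herpud1) and above them for 0, where 29.2% of all promoters lay below and 16.3% above. Promoters as a class ranked lower in the 48 h lists. When ranks were taken among promoters only, the same 5 members lay below, and the background became 22.2% below and 21.4% above. On that scale the members' median change was −0.19 and that of all promoters −0.01. The lower count of hepatocyte markers at 48 h and the lower −log10 p at rank 50000 moved with this result, and their part in it was not tested.

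At 72 h, 6 of 8 members lay below 0 h in both libraries (all but Trib3 and Herpud1) and 1, Trib3, lay above. The background was 32.1% of promoters below and 14.7% above, or 23.0% and 20.4% when ranked among promoters. Changes ran from −1.12 ± 0.64 for Eif2ak3 to 1.02 ± 0.61 for Trib3, or −0.88 and 1.26 relative to the median promoter, which moved by −0.24. With ranks divided by list length the median promoter lay at −0.046, 0.11 and 0.14 at the 3 times, and the shares below and above were 22.8% and 19.7%, 17.2% and 25.4%, and 12.4% and 21.5%. On that scale 4 members lay below and 0 above at 48 h, 5 below and 1 above at 72 h, and 0 below and 2 above at 96 h. By limma with Benjamini-Hochberg adjustment no member was called (smallest adjusted p = 0.568), and 0 of all promoters were called in either direction (0.0%), with 1298 (9.83%) at an unadjusted p under 0.05 and no member among them. Of all promoters, 10.1% had a lower change than Eif2ak3 and 94.2% a lower one than Trib3. The file of 72 h replicate 2 carries a different run label from the other 7. Without it the change of Trib3 was 0.45, and with it as the only 72 h library it was 1.58, so 1 library decides the size of this difference.

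At 96 h, Hspa5 lay above 0 h in both libraries (0.53 ± 0.48, or 0.21 without replicate 2 and 0.85 without replicate 1 of that time) and the other 7 members overlapped 0 h, where 13.6% of all promoters lay above and 20.0% below. The remaining changes ran from −0.36 (Herpud1) to 0.38 (Xbp1). Those of Ddit3, Atf6, Ern1, Eif2ak3, Trib3 and Herpud1 were negative and small, and each of them turned positive under at least 1 other scale. The smallest adjusted p among members was 0.961 by limma with Benjamini-Hochberg adjustment, with 1 promoter of all called lower (0.00757%) and 0 higher, and 701 (5.31%) at an unadjusted p under 0.05, none of them a member. The 2 libraries of this time point differed more for the members than those of any other. All 8 members ranked better in 96 h replicate 2, beside 56.6% of all promoters, and their median difference was 1.13 on the log2 scale, beside 0.68 for all promoters. At 0, 48 and 72 h the members' median difference between replicates was 0.33, 0.32 and 0.30. With 96 h replicate 1 alone, 7 members lay below both 0 h libraries and 1 above, with a median of −0.64, where 45.7% of all promoters lay below and 28.8% above. With 96 h replicate 2 alone, 6 lay above and 0 below, with a median of 0.75, where 35.5% of all promoters lay above and 35.8% below. The 96 h values of the group therefore rest on which library is read.

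**Figure D2:**
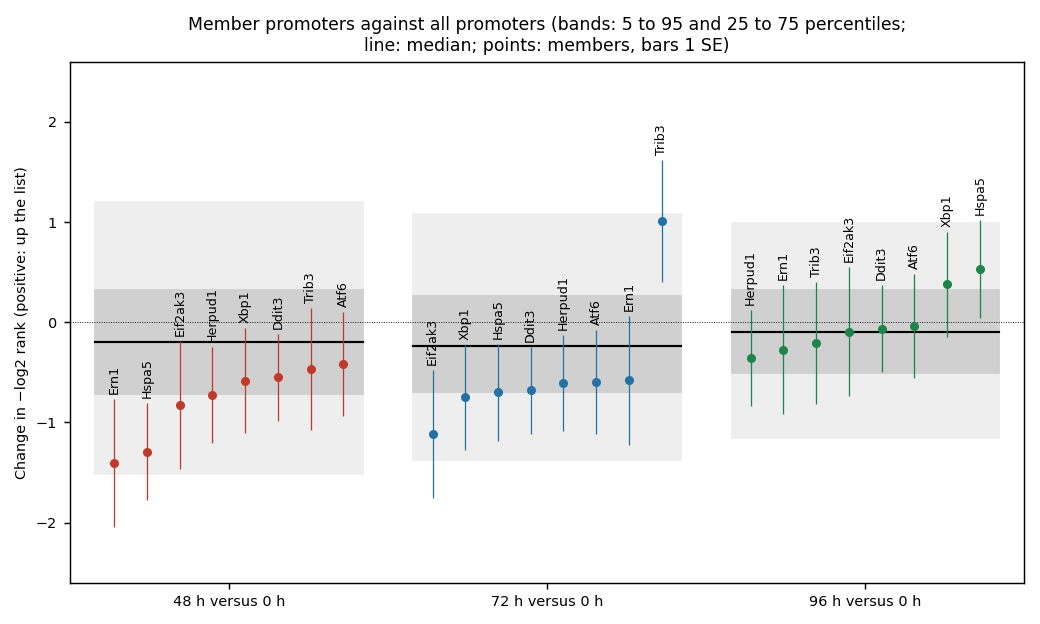
Change in −log2 rank against 0 h (y, positive is up the list) for the 8 members fitted (points, bars 1 SE), over all 13202 promoters (light band 5 to 95, dark band 25 to 75 percentiles, line median) at each time (x). All members lie below 0 at 48 h, Trib3 stands above the others at 72 h, and at 96 h the members lie around the median promoter.

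A list of 44 other genes of the response was read in the same way, and 42 of them had a promoter interval in all 8 lists (Atf3 in 6, Ern2 in none). Of these 42, 17 lay below and 2 above 0 h at 48 h, 19 below and 2 above at 72 h, and 5 below and 5 above at 96 h. The shares over all promoters, given above, were 29.2% below and 16.3% above, then 32.1% and 14.7%, then 20.0% and 13.6%. Ranked among promoters, the 48 h counts were 12 below and 2 above, where 22.2% of all promoters lay below and 21.4% above. On that scale the counts at 72 h were 11 below and 4 above, beside 23.0% and 20.4% of all promoters, and those at 96 h 2 below and 6 above, beside 17.2% and 16.3%. The median change at 48 h was −0.57, beside −0.20 for all promoters, and −0.18 beside −0.01 when ranked among promoters. By limma with Benjamini-Hochberg adjustment 0 of the 42 were called at any time (smallest adjusted p 0.245, 0.398 and 0.922), and 8, 3 and 0 had an unadjusted p under 0.05.

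By role, 6 of 15 chaperones and foldases lay below at 48 h and 0 above, as did 4 of 8 degradation genes. For the PERK branch 3 of 10 lay below and 1 above, and for sensors, proteases and related factors 4 of 9 lay below and 1 above. These counts stand beside 29.2% below and 16.3% above over all promoters, and 3 of 10 is close to the former. Ranked among promoters, 5 of 15, 2 of 8, 2 of 10 and 3 of 9 lay below, beside 22.2% of all. Calr, the lectin chaperone calreticulin, ranked 10451 and 11242 in the 0 h pair and 43839 and 28808 in the 48 h pair (−1.71 ± 0.59). Its 72 h libraries, 7879 and 13115, again overlapped 0 h. Traf2, an adaptor that binds IRE1, ranked 2559 and 1126 in the 0 h pair and 3949 and 7218 in the 48 h pair (−1.65 ± 0.81). Its 72 h libraries, 3412 and 14661, also lay below 0 h (−2.06 ± 0.81), and its replicates were far apart at each of these times. In the other direction, Asns, the ATF4 target asparagine synthetase, ranked 18766 and 34921 in the 0 h pair and 7563 and 11847 in the 48 h pair (1.44 ± 0.56). Mbtps2, the protease that cuts ATF6, ranked 23391 and 17819 in the 0 h pair and 17707 and 13336 in the 48 h pair (0.41 ± 0.51), a difference within its error.

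**Figure D3:**
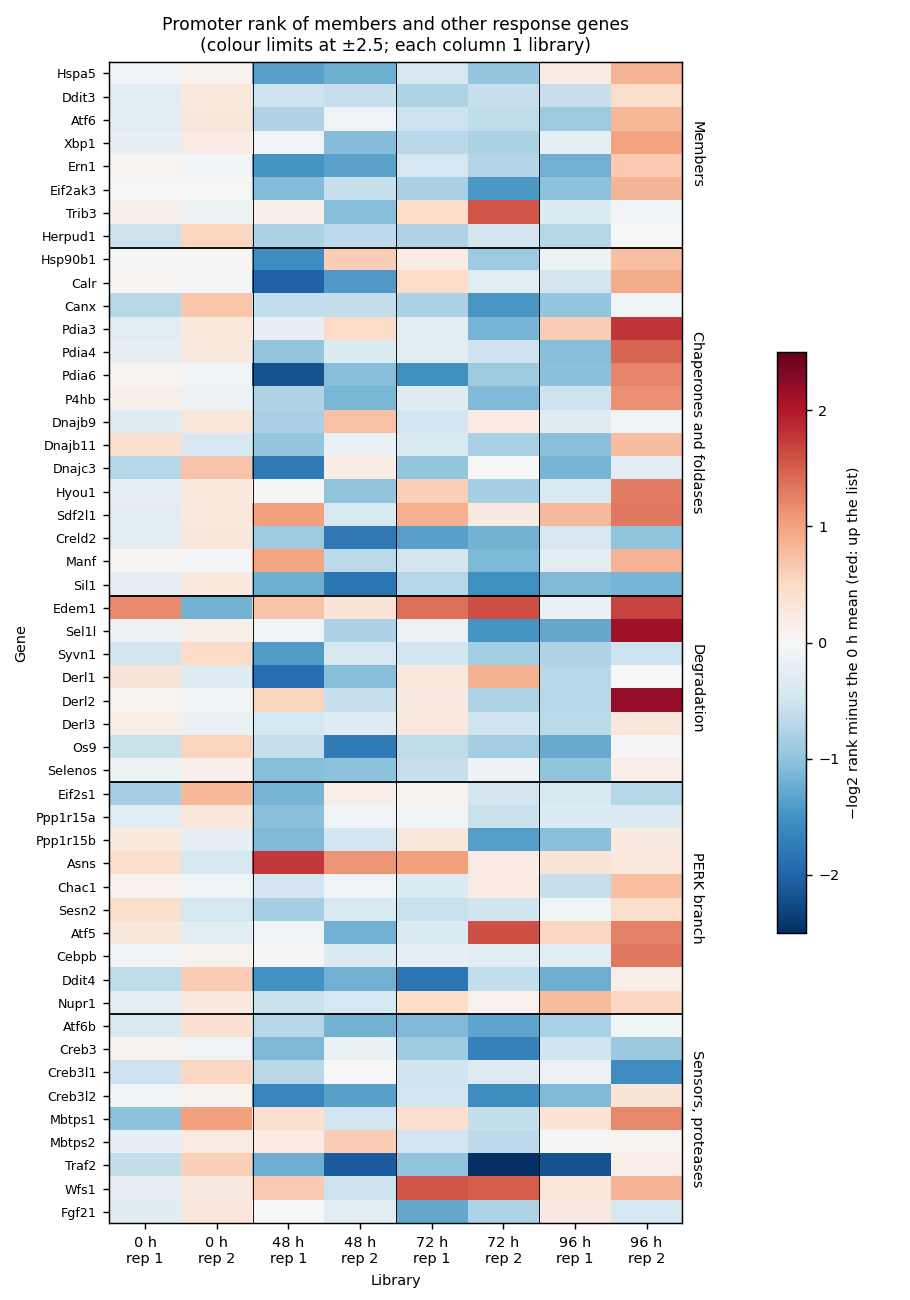
Promoter rank of the 8 fitted members and 42 other response genes (y, grouped by role) in each of the 8 libraries (x), as −log2 rank minus the 0 h mean, red for up the list and blue for down, with colours capped at 2.5. Blue is common in both 48 h columns, both 72 h columns and that of 96 h replicate 1, Asns is red in both 48 h libraries, and 96 h replicate 2 is red where 96 h replicate 1 is blue for many genes.

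Distal regions were counted apart. Of the 194 distal regions around the members, 33 (17.0%) were in all 8 lists and 90 in 1 list, compared with 14.7% of all 281849 distal regions in all 8. The long genes held most of them, 81 for Atf6, 42 for Ern1 and 28 for Eif2ak3, and Xbp1 held 3. By place, 11 of 26 downstream regions were in all 8 lists, against 2 of 16 upstream and 20 of 152 within gene bodies. The strongest was downstream of Xbp1, in an intron of Ccdc117, with a median rank of 4773.5, which was ahead of the Xbp1 promoter at 23784. For Atf4, Atf6 and Herpud1 too, the best distal region in all 8 lists outranked the gene's own promoter by median (31272, 13986 and 25661.5, beside 83633, 32027.5 and 36677.5). For Creb3l3, which had no promoter interval, it had a median rank of 18697.

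**Figure D4:**
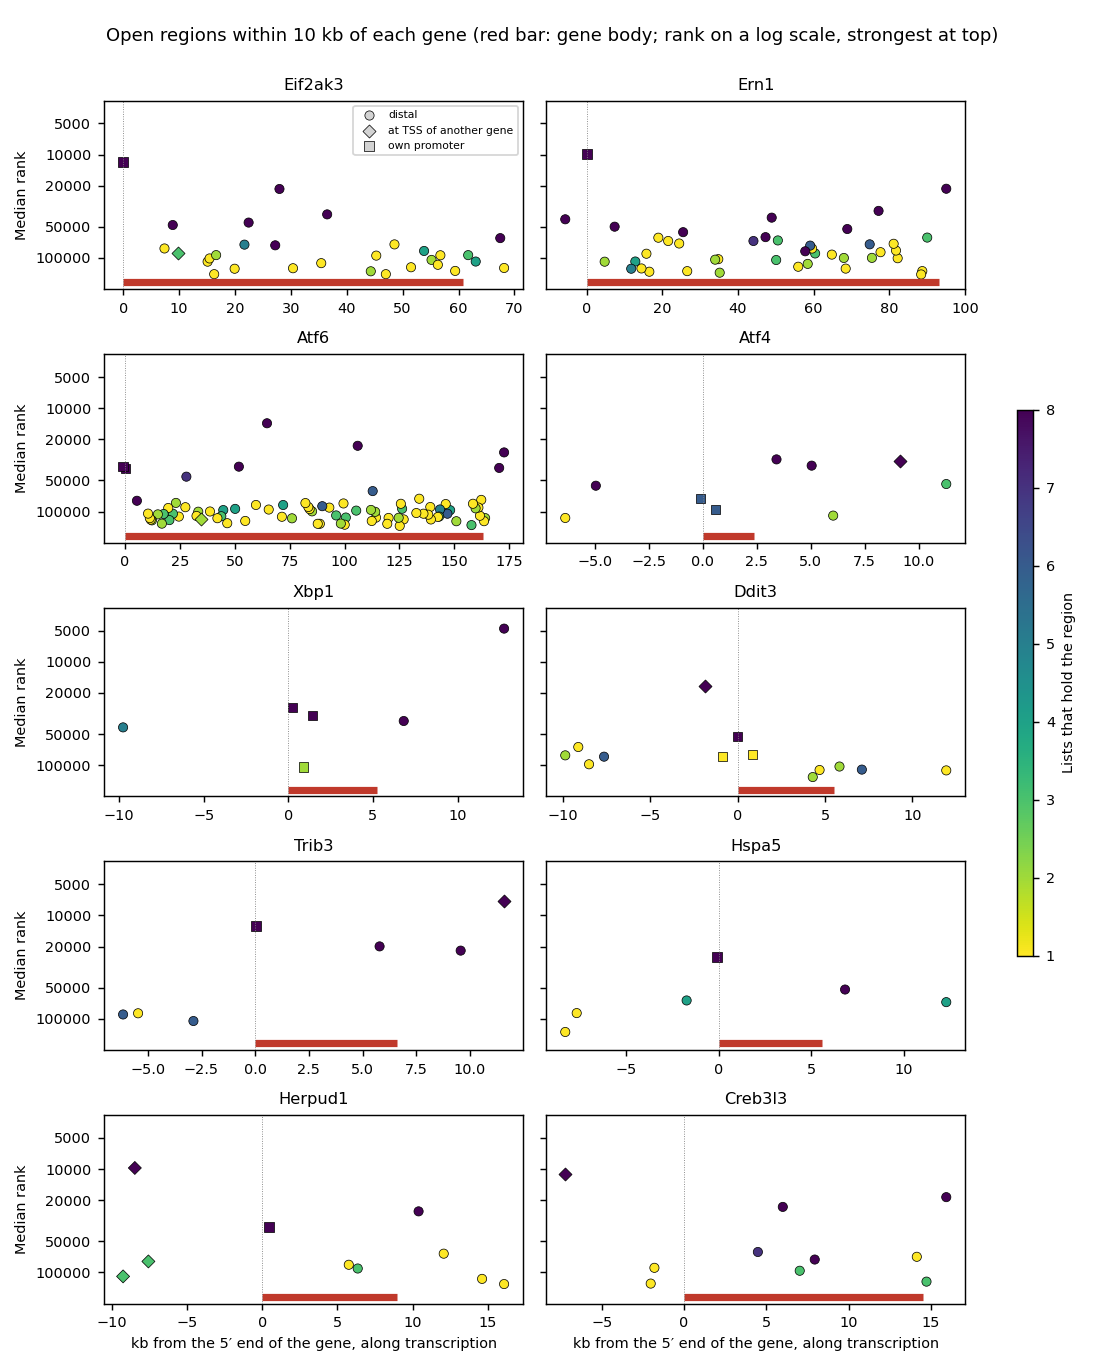
Open regions within 10 kb of each of the 10 genes, placed by distance from the 5′ end of the gene along transcription (x, kb) and by median rank (y, log scale, strongest at the top); colour gives the number of lists that hold a region, squares are the gene's own promoter, diamonds the TSS of another gene, circles distal regions, and the red bar the gene body. Distal regions in all 8 lists have median ranks from 4773.5 to 86174, and most of those around Atf6, Ern1 and Eif2ak3 are in fewer lists.

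Among the 33 distal regions in all 8 lists, 9 lay above and 9 below 0 h at 48 h, 6 above and 10 below at 72 h, and 5 above and 4 below at 96 h. The shares over all 41536 distal regions in all 8 lists were 20.4% above and 23.1% below, then 20.9% and 20.1%, then 17.0% and 19.4%. At 48 h the 2 directions were thus equally frequent around the members. With ranks divided by list length the counts at 72 h became 11 above and 4 below, beside 38.0% and 7.6% of all distal regions, and those at 96 h 9 and 1, beside 26.6% and 10.3%. By limma with Benjamini-Hochberg adjustment no member region was called at any time (smallest adjusted p 0.302, 0.548 and 0.789), while 4 of all distal regions were called at 48 h (0.00482% in each direction) and 0 at 72 and 96 h. An unadjusted p under 0.05 was found for 4737 (11.4%), 3093 (7.45%) and 2660 (6.4%) of all distal regions and for 3, 3 and 0 of the 33 around the members.

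The region with the smallest adjusted p at 48 h lay 329 bp past the end of Atf4, in intergenic sequence (chr15:80257871-80259327). It ranked 41250 and 40886 in the 0 h pair, 16577 and 16345 in the 48 h pair, 29190 and 32242 in the 72 h pair and 33011 and 30302 in the 96 h pair. Replicates were close at every time, all 6 libraries after PHx lay above both at 0 h, and the change at 48 h was 1.32 ± 0.50 (adjusted p = 0.302 by limma with Benjamini-Hochberg adjustment). Over the alternatives that value ran from 0.206 to 0.994. The interval across the Atf4 TSS was in neither list at that time. The region downstream of Xbp1 (chr11:5533090-5533720) ranked 5332 and 4215 in the 0 h pair, 2173 and 2259 in the 48 h pair, 6792 and 7786 in the 72 h pair and 3755 and 13251 in the 96 h pair. It lay above 0 h at 48 h (1.10 ± 0.76) and below at 72 h (−0.62 ± 0.76). The 201 bases around the strongest summit of each region are given because these were the strongest Atf4 and Xbp1 regions outside a promoter, with the 21 bases at the summit in capitals.
Atf4 downstream (chr15:80258808-80259008, + strand): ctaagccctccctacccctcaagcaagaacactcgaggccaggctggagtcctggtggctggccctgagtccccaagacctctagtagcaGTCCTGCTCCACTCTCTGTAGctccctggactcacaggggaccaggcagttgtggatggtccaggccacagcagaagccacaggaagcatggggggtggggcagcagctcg
Xbp1 downstream (chr11:5533167-5533367, + strand): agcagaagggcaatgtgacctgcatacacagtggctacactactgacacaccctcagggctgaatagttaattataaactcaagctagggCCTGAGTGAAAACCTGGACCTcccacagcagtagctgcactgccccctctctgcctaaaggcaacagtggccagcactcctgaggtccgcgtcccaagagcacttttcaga

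Of the other genes, the best distal region of Atf6 lay in an intron (chr1:170802520-170803672) and ranked 15793 and 18879 in the 0 h pair, 12112 and 27572 in the 48 h pair, 6549 and 6405 in the 72 h pair and 15562 and 12410 in the 96 h pair. Both 72 h libraries lay well above 0 h (1.42 ± 0.62), and the 48 h pair straddled it. The 3 regions named next were chosen after their values were seen. A region 5262 bp upstream of Ern1 (chr11:106493115-106493870) ranked 38736 and 19433 in the 0 h pair and 58549 and 69535 in the 48 h pair (−1.22 ± 0.48), in the direction of the Ern1 promoter. Leaving out 1 library of the 0 h pair gave −1.72 (replicate 1 left out) or −0.72 (replicate 2 left out). An exon-overlapping region within Ern1 (chr11:106418644-106419271) went the other way, from 67219 and 72908 in the 0 h pair to 41598 and 30100 in the 72 h pair (0.98 ± 0.42). Within Creb3l3, the region chr10:81090570-81091285 ranked 48516 and 27389 in the 0 h pair, 73186 and 80985 in the 48 h pair (−1.08 ± 0.44) and 76935 and 89643 in the 72 h pair (−1.19 ± 0.44). These changes were −1.49 and −1.60 without 0 h replicate 1 and −0.67 and −0.78 without 0 h replicate 2. The adjusted p of these by limma with Benjamini-Hochberg adjustment was between 0.320 and 0.637 at the times given.

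The best distal regions of Creb3l3, Ern1 and Herpud1 lay downstream and those of Trib3, Eif2ak3 and Hspa5 within or across the gene end, with median ranks of 18697, 21402, 25661.5, 19929.5, 21509 and 52095. At 48 h their pairs overlapped 0 h, other than that of Eif2ak3, which ranked 19199 and 38167 in the 0 h pair and 18442 and 17604 in the 48 h pair. Ddit3 had 9 distal regions and none in all 8 lists.

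**Figure D5:**
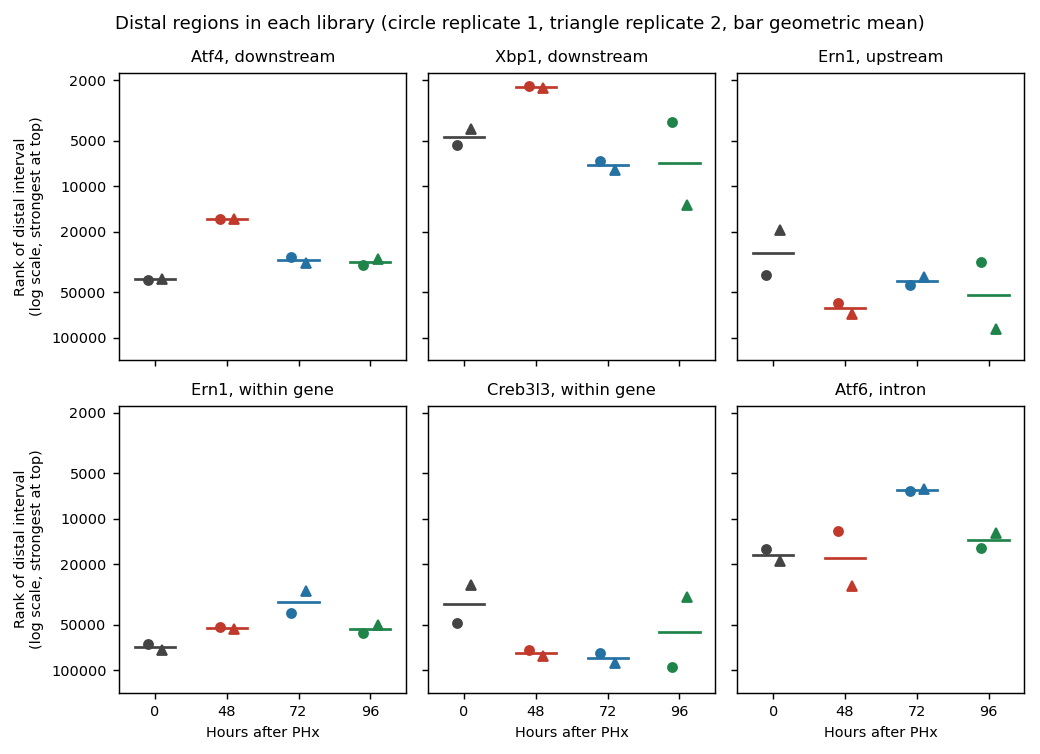
Rank of 6 distal regions (y, log scale, strongest at the top) by hours after PHx (x); circles are replicate 1, triangles replicate 2 and bars geometric means. The Atf4 and Xbp1 downstream regions are highest at 48 h, the Atf6 intronic region and the region within Ern1 at 72 h, and the Ern1 upstream and Creb3l3 regions lie lower after PHx in most libraries.

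Some distal regions were in both lists of one time point and in neither of another. At 48 h, 11 of 194 (5.67%) were in both 0 h lists and in neither 48 h list, beside 1.74% of all distal regions, and 4 (2.06%) showed the reverse, beside 1.05%. At 72 h the counts were 3 (1.55%) and 7 (3.61%), beside 0.709% and 2.84%, and at 96 h 2 and 2 (1.03% each), beside 0.953% and 1.59%. Of the 11 regions, 8 lay within gene bodies, 5 of them in Atf6. Of all 194, 152 lay within gene bodies, 77 of them in Atf6. The strongest was 9655 bp upstream of Xbp1 (chr11:5510770-5511003), at 0 h ranks of 43076 and 32244. It was also in 3 of the 4 later lists, at 71630, 80562 and 41439. An intronic region of Atf6 (chr1:170754771-170755093) ranked 65567 and 39319 in the 0 h lists and was again in all 4 lists of 72 and 96 h. A neighbouring intronic region (chr1:170755603-170755827) was in both 0 h lists, at 117653 and 75136, and in none after PHx. Of those in both 48 h lists and neither 0 h list, an intronic region of Eif2ak3 (chr6:70865745-70866681) ranked 74326 and 47755 in the 48 h lists and 104238 and 73222 in the 72 h lists. Listing near the end of a list also depends on depth, which is unknown.

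Among the promoters whose −log2 rank over the 8 libraries was most like that of Hspa5, out of 13201 others, were Lefty1 (Pearson r = 0.972) and Slc35g1 (0.966). For Trib3 the 3 most alike were Lrrc47 (0.966), Smc5 (0.965) and Hpn (0.956). These are descriptions over 8 libraries that share depth differences, picked as the highest of many, and carry no p.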

How the data were processed

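Bulk ATAC-Seq was measured in 8 hepatocyte libraries, 2 of undamaged liver (0 h) and 2 at each of 3 times after PHx (48, 72 and 96 h), grouped by the sample labels. Per the study's methods, the authors used the ENCODE ATAC-Seq pipeline, with mapping to mm10 by Bowtie2, removal of PCR duplicates and MACS2 peak calling. One list was deposited per library. The deposited lists give a score, a fold enrichment (ratio over local background), a −log10 p, a −log10 q and a summit for each peak. They hold no read counts, so depth is unknown and the study's count test could not be run. Tool versions of the authors' pipeline are not given in the sources used here.

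Lines sharing an interval were collapsed to the highest −log10 p and ranked within a list. Promoters (TSS ± 1000 bp) and gene bodies came from GENCODE M21 on GRCm38.p6, and a promoter took its best-ranked interval. Consensus regions merged intervals that overlapped by 1 bp or more. −log2 rank was tested with limma 3.58.1 in R 4.3.3 (a mean per time point, trended prior, two-sided, Benjamini-Hochberg over all features listed in all 8 lists, called under 0.05, 4 residual degrees of freedom). The procedure was first run on data simulated with independent noise. Shifts there were absent or larger than the members' changes, so changes of the members' size were not covered. The 3 comparisons share the 0 h libraries. Differences between time points after PHx were contrasts of the same model. Python 3.11.15 with pandas 2.3.3 and pysam 0.24.0 was used for intervals and sequences.

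The members, lists and tests were chosen with earlier results of these data known. All members are named. Distal regions are named where best per gene or called. Of those in both lists of one side and neither of the other, which the rule also covers, 4 are named and the rest counted. These 4 and 3 further regions were chosen after their values were seen. Others are named for a RefSeq start in Creb3l3 or for lying on opposite sides of 0 h at different times. Pathway genes are named for the 2 largest differences in each direction among those separated at 48 h, and like patterns as the 3 highest r for the 2 members of widest range, of which 1 is not reported here. Alternatives were rank divided by list length, rank among promoters, fold enrichment, the 50000 strongest intervals, q under 0.05, absent intervals ranked last, a window of 250 bp, the summit inside the window, a replicate block and leaving out each library. Replicate numbers give no stated pairing.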

Additional observations from a re-analysis of the deposited data

Results flagged for a closer look

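Some members and regions lay above 0 h in both libraries of one time point and below it in both libraries of another. For the Hspa5 promoter the change was −1.29 at 48 h and −0.70 at 72 h but 0.53 at 96 h. Leaving out 1 library moved the 72 h value to −0.97 (72 h replicate 1 left out) or −0.43 (72 h replicate 2 left out). The 96 h value moved most, to 0.21 without 96 h replicate 2 and to 0.85 without 96 h replicate 1. The difference of 96 h from 48 h was 1.82 (adjusted p = 0.48 by limma with Benjamini-Hochberg adjustment over all promoters), and that from 72 h was 1.23 (adjusted p = 0.997 by limma).

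Such opposite sides were also seen for 4 distal regions, and none of the differences passed limma with Benjamini-Hochberg adjustment. The region downstream of Xbp1 in Ccdc117 (chr11:5533090-5533720) differed by −1.71 between 72 h and 48 h (adjusted p = 0.509). The nearer Xbp1 region (chr11:5526564-5528384) differed by −1.15 between 96 h and 72 h (adjusted p = 1.0). The second region downstream of Atf4 (chr15:80259439-80261015) differed by −0.48 between 72 h and 48 h (adjusted p = 0.839). An intronic region of Ern1 (chr11:106480020-106480863) differed by −0.73 between 72 h and 48 h (adjusted p = 0.633) and by 0.77 between 96 h and 72 h (adjusted p = 1.0).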

How the results depend on the processing

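No member promoter and no member region passed limma with Benjamini-Hochberg adjustment under any setting run. Of 402 re-computed promoter changes 382 kept their direction, and of 285 distal ones 284 did. Promoters of all genes called at 48 h (6 in the report) numbered 12 with a 250 bp window and 0 by fold enrichment. At 72 h (0) they numbered 3 with a 250 bp window or absent intervals ranked last, and 1 with the 50000 strongest intervals, q under 0.05, list length or the summit inside the window. At 96 h (1) they numbered 3 with a 250 bp window, 7 with absent intervals ranked last, and 0 with the 50000 strongest intervals, fold enrichment, q under 0.05, rank among promoters, list length or the summit inside the window. Without 1 library they ran from 1 to 47, 0 to 7 and 0 to 5 at the 3 times. The number of distal regions called (4, 0 and 0) became 0 at 48 h with the 50000 strongest intervals, 1 at 72 h with list length, and 69, 44 and 19 with absent intervals ranked last. Without 1 library it ran from 0 to 5 at 48 h and 0 to 1 at 96 h.

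Member promoters lying below 0 h became 3 (from 5) at 48 h with the 50000 strongest intervals, which fit 6 members, or fold enrichment, 3 (from 6) at 72 h by fold enrichment, and 1 (from 0) at 96 h with a 250 bp window. Over all promoters 30.6% and 19.8%, 20.1%, and 20.5% lay below in these settings. Those above at 96 h (1) became 0 with the 50000 strongest intervals and 2 by fold enrichment or list length, where 12.8%, 16.5% and 21.5% of all promoters lay above. With 1 library left out, when fewer values have to agree, those above ran from 0 to 1 at 48 h and 1 to 6 at 96 h, and those below from 0 to 7 at 96 h. With a compared library left out, 26.3% to 31.0% of all promoters lay above at 48 h. At 96 h, 25.4% to 35.5% of all promoters lay above and 32.1% to 45.7% below. Member distal regions above 0 h (9, 6 and 5) became 2, 3 and 2 with the 50000 strongest intervals, which fit 14 of 33, and 11 and 9 at 72 and 96 h by list length. Over all distal regions 23.6%, 24.1% and 18.0% lay above with the 50000 strongest, and 21.2%, 17.3% and 18.5% below. Those below (9, 10 and 4) became 4, 3 and 1 with the 50000 strongest, 4 and 1 at 72 and 96 h by list length, and 32, 111 and 123 of 194 with absent intervals ranked last, which places the longest lists' absences lowest. In that setting 12.9%, 61.4% and 57.6% of all distal regions lay below. Without 1 library, those above ran from 9 to 16, 6 to 12 and 5 to 13, and those below from 9 to 14, 10 to 17 and 4 to 15. With a compared library left out, the shares over all distal regions were 28.6% to 36.7% above and 32.3% to 39.3% below.

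Directions turned for small 96 h changes. By list length the change became 0.193 for Atf6, 0.17 for Ddit3, 0.142 for Eif2ak3 and 0.0274 for Trib3, and that of chr15:80259439-80261015 at 72 h became 0.27. By rank among promoters it was 0.0675 for Atf6, 0.0114 for Ddit3 and 0.0427 for Eif2ak3, and by fold enrichment 0.0266 for Atf6, 0.0994 for Ern1 and 0.023 for Herpud1. Without 1 library the 96 h change ran from −0.916 to 0.834 for Atf6, −0.567 to 0.439 for Ddit3, −1.03 to 0.851 for Eif2ak3, −1.21 to 0.657 for Ern1 and −0.247 to 1.0 for Xbp1, the low end without 96 h replicate 2 and the high end without 96 h replicate 1. For Herpud1 it ran from −0.894 without 0 h replicate 1 to 0.184 without 0 h replicate 2. That of Trib3 at 48 h ran from −1.06 to 0.123, the latter without 48 h replicate 2. For these the cause was not tested.

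With the replicate number as a block, 3 promoters were called at 48 h in place of 6, and no member call changed. Same-numbered libraries deviated with correlations of −0.0860 to 0.116 across times, so little shift in rank was shared by number. These values cannot tell whether same-numbered libraries were handled together.

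Read depth is unknown and bounds what listing near the end of a list can show. With 2 libraries a group, a difference in rank smaller than the spread between libraries was not detectable.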
